A study of Mus musculus with 12 samples.

Results

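Kit and Myc were followed through a Capture-C map of promoter contacts in fetal and adult blood stem cells of the mouse. All listed contacts whose gene name, without the number that marks an alternative promoter, was Kit or Myc were taken. They came to 93 of the 89545 listed contacts, 6 for Kit and 87 for Myc, at 3 of 3781 promoter entries and 2 of 3374 genes. Kit had 1 captured fragment (chromosome 5, 75970857 to 75971102). Myc had a pair of fragments 1218 bp apart on chromosome 15, an upstream one (61816404 to 61817060, listed as Myc_1) and a downstream one (61818279 to 61819369, listed as Myc). Coordinates are those of the deposited table, whose build is mm9 per the submitters' processing notes.

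Capture-C digests cross-linked chromatin with DpnII, ligates ends that lay close together in the nucleus, and pulls out the ligation products of chosen promoters with probes, so that each read pair reports a distal bin met by that promoter. Fetal HSCs (haematopoietic stem cells) came from the liver at embryonic day 14.5 and adult HSCs from bone marrow at 6 to 8 weeks of age, both from B6129SF1 mice without engineered alleles or treatment in the labels. Both were sorted as lineage-negative cells positive for Sca1 and cKit and negative for CD135, so Kit protein itself was part of the gate. Each population gave 4 libraries, 2 in each of 2 batches, and all 3 entries belong to the first batch. The table gives 1 value per population within a batch and none per library. Replicate error therefore cannot be computed, whether a difference exceeds it is unknown, and no p-value is given. The number of animals behind a library is not given in the labels. The 2 wild-type and 2 TCF3-knockout libraries of the HPC7 line, a mouse blood progenitor line, were not analysed here. Intervals are exact 95% intervals for counting error only, and neighbouring bins are not independent.

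KIT is the receptor tyrosine kinase for stem cell factor (KITL), and blood stem cells depend on it for survival and maintenance. MYC is a transcription factor that, paired with MAX, drives ribosome production, metabolism and entry into the cell cycle, and its level in stem cells affects the balance of self-renewal and differentiation. Myc lies beside the long non-coding RNA gene Pvt1 in a region poor in coding genes, and a cluster of enhancers far downstream of it is known to be needed for its expression in blood stem cells. Whether the bins below coincide with that cluster was not tested. Both genes are transcribed towards higher coordinates, so higher coordinates are called downstream.

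The promoter shown first is that of Kit, because DpnII sites set the ends of the fragments that Capture-C can tell apart. The 250 bases before the annotated start are given from RefSeq (GRCm38.p6, chr5:75574737-75574986, plus strand), a different build from that of the contacts, with the DpnII site GATC in capitals.
Kit promoter: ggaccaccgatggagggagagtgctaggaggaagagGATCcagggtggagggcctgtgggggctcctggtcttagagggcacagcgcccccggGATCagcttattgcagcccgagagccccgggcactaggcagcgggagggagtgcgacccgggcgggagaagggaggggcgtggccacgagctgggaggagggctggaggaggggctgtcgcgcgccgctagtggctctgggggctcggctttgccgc
The window holds 2 GATC sites, which begin 214 and 157 bases before the start, and 42.0% of 27025 such windows hold at least 1. On either strand it holds no match to CACGTG, the E-box of MYC and MAX (6.05% of windows hold one), none to the wider E-box CANNTG, of which CACGTG is a case (66.0%), and none to GATAA (23.0%). It holds 1 match to GGAA, the core of ETS sites (93.4%). Such matches describe letters in this window and are no evidence of binding.

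The genes were expressed in both populations. FPKM (fragments per kilobase of transcript, scaled to sequencing depth) was 32.8 in fetal and 50.5 in adult cells for Kit, a log2 ratio of FPKM + 1 of -0.61, and the authors' deposited table marked Kit as differentially expressed, as it did 35.5% of the first-batch entries. Kit protein was a sorting criterion in both populations, and its part in the level was not tested. The Myc entries had 37.1 fetal and 35.2 adult FPKM at the upstream fragment and 44.8 and 40.8 at the downstream fragment, with log2 ratios of 0.08 and 0.13, and neither was marked as differentially expressed. How FPKM was made is not given in the sources used here, and 1 value per population cannot tell fewer expressing cells from less RNA per cell. In fetal cells, FPKM exceeded that of Kit at 328 of the 1952 first-batch entries and that of the downstream Myc entry at 252.

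The captured genes also include markers of other blood cells. All 6 HSC and progenitor markers, Kit among them, were captured and had at least 10.3 FPKM in fetal and 11.1 in adult cells at their highest entry. All 4 erythroid markers lay between 1.50 and 24.0 FPKM in fetal and between 0.0112 and 2.40 in adult cells. The 4 captured macrophage markers lay between 1.0 and 7.99 in fetal and between 0.00996 and 1.14 in adult cells. The 3 granulocyte markers lay between 11.1 and 46.1 in fetal and between 1.39 and 2.04 in adult cells. Summed over genes, each at its highest entry, these 3 lists came to 38.1, 17.2 and 71.2 FPKM in fetal and 2.74, 2.01 and 5.18 in adult cells, against 150.0 and 234 for the HSC list. None of these markers was listed at 0, and none of 3 B cell and 2 T cell markers was captured. Their part in the contacts of Kit and Myc was not tested.

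The Kit promoter had few contacts, and most were called in adult cells. A contact counts as called in a population when its score, the −log10 of a p-value in the authors' table, is above 0, which in the first batch starts at 1.3. Kit had 6 listed contacts, 2 called in fetal and 5 in adult cells, where the median first-batch entry had 18 contacts, 11 fetal and 10 adult calls, and 18.4% of entries had fewer contacts. More adult than fetal calls were seen at 42.1% of the 1952 entries, and 5.58% had a log2 ratio of fetal to adult calls below that of Kit, -1.0 with 1 added to each side. The excess vanished at a p-value 10 times smaller, where 2 fetal and 2 adult calls remained. The Kit fragment was short, 246 bp against a median of 717 bp, and its part in the number of contacts was not tested. Across the 1952 entries, length and number of contacts had a Spearman's rho of 0.0, a description across promoters, and the 176 entries of at most 246 bp had a median of 18 contacts.

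**Figure D1:**
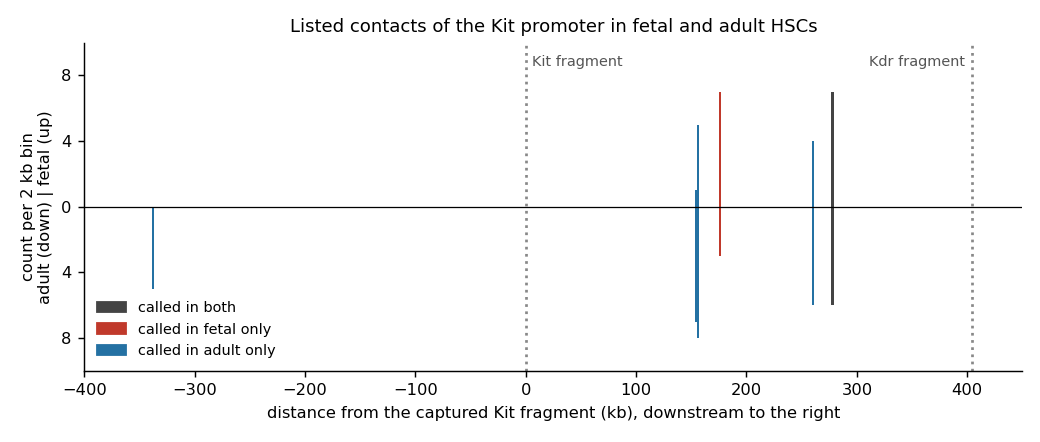
Fetal (up) and adult (down) counts of the 6 listed Kit contacts by distance from the captured fragment in kb, coloured by the population that called them. A single contact, at 278 kb, was called in both populations, no count exceeds 8, and all but 1 contact lie between the Kit and Kdr fragments.

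Of the 6 Kit contacts, 5 lay downstream, between 154 and 278 kb from the promoter. The next captured promoter on that side, of the growth factor receptor gene Kdr, is 404.1 kb away, so these bins lie between both promoters. The bin at 278 kb (76248001 to 76250001) had 7 fetal and 6 adult counts and was called in both populations. Next to it in distance, the bin at 260 kb had 4 fetal and 6 adult counts and was called in adult cells only. Both are marked as active enhancers and as open chromatin in both populations by the authors.

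The bins at 154 and 156 kb (76124001 to 76128001) touch each other and were called in adult cells only. The first had 1 fetal and 7 adult counts and is marked as an active enhancer in adult cells alone. The second had 5 and 8 counts and is marked in both populations. Together they gave 6 fetal and 15 adult counts. A bin is listed only where at least 1 population called it, so an excess in the calling population is set by the listing wherever the other made no call, and no ratio is given for such bins.

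The fetal-only contact of Kit, at 176 kb, had 7 fetal and 3 adult counts and carries none of the deposited marks. The upstream contact, 338 kb before the promoter, had 0 fetal and 5 adult counts and is marked as open chromatin in both populations. Active enhancers thus took 1 of the 2 calls in fetal and 4 of the 5 in adult cells (80.0%, 28.4 to 99.5 for the latter), set against 12.7% and 13.1% of all first-batch calls. No Kit count exceeded 8, and summed over all 6 contacts the counts were 24 fetal and 35 adult.

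Most calls of Myc, unlike those of Kit, lay beyond 1 Mb, 63.3% of 60 fetal and 71.4% of 56 adult calls over both fragments, where 0.925% and 1.12% of first-batch calls within a chromosome did. Fetal calls recurred in adult cells in 45.9% of cases (29.5 to 63.1) at the upstream and 52.2% (30.6 to 73.2) at the downstream fragment. Both intervals include the 39.8% of the batch. The upstream fragment had 53 listed contacts, with 37 fetal and 33 adult calls, and the downstream fragment had 34, with 23 calls in each population, so log2 ratios of calls were 0.16 and 0.0. More fetal than adult calls were seen at 48.1% of the first-batch entries. By class, the 87 Myc contacts split into 29 that both populations called, 31 called in fetal cells only and 27 in adult cells only, where the first batch as a whole had 25.7%, 38.9% and 35.4% of its contacts in these classes. Beyond 1 Mb, 50 contacts were listed, 18 at the downstream and 32 at the upstream fragment. A contact of that reach was listed at 9.89% of the first-batch entries, and 0.99% of the batch's contacts within a chromosome had it. Myc gave 10.2% of them. Only the immune gene Sp110, with 38, exceeded the upstream Myc fragment, and Hmgn1, with 20, also exceeded the downstream one.

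**Figure D2:**
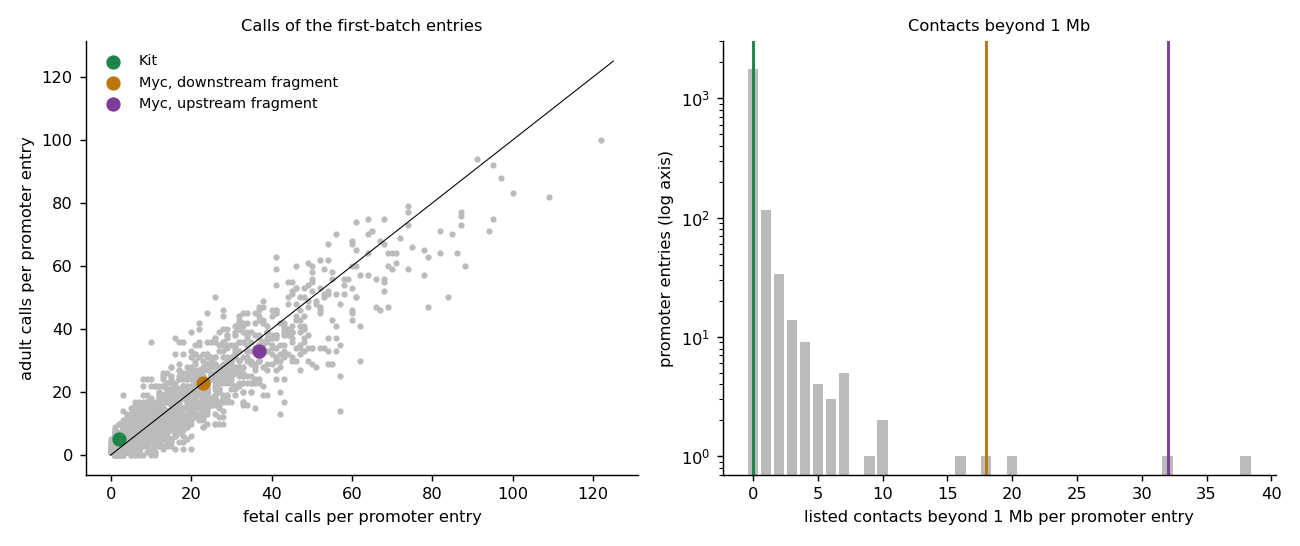
Left, fetal against adult calls of the 1952 first-batch promoter entries, with the line of equal numbers. Right, the number of entries (log axis) by their listed contacts beyond 1 Mb. Kit sits near the origin at 2 and 5 calls, and vertical lines mark 0 such contacts at Kit, 18 at the downstream and 32 at the upstream Myc fragment.

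The contacts of Myc fell into a near and a far group on the downstream side with nothing listed between 474.3 kb and 1608.3 kb. The near group ran from 52.3 kb to 474.3 kb, with 19 contacts of the upstream and 16 of the downstream fragment. The far group ran from 1608.3 kb to 1786 kb at the upstream fragment (31 contacts) and from 1624.2 kb to 1752 kb at the downstream fragment (18 contacts). Its outer bins span 180 kb (63424001 to 63604001), and 34 of the 90 bins of 2 kb in that span were listed for at least 1 fragment. The upstream side held 3 contacts, all of the upstream fragment, between 829.7 kb and 1160 kb away. No other captured promoter lies near: the next ones, of Fbxo32 and Efr3a, are 3770 kb upstream and 3800 kb downstream. No other promoter of the table listed a Kit or Myc bin, or listed their fragments as its distal bin.

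**Figure D3:**
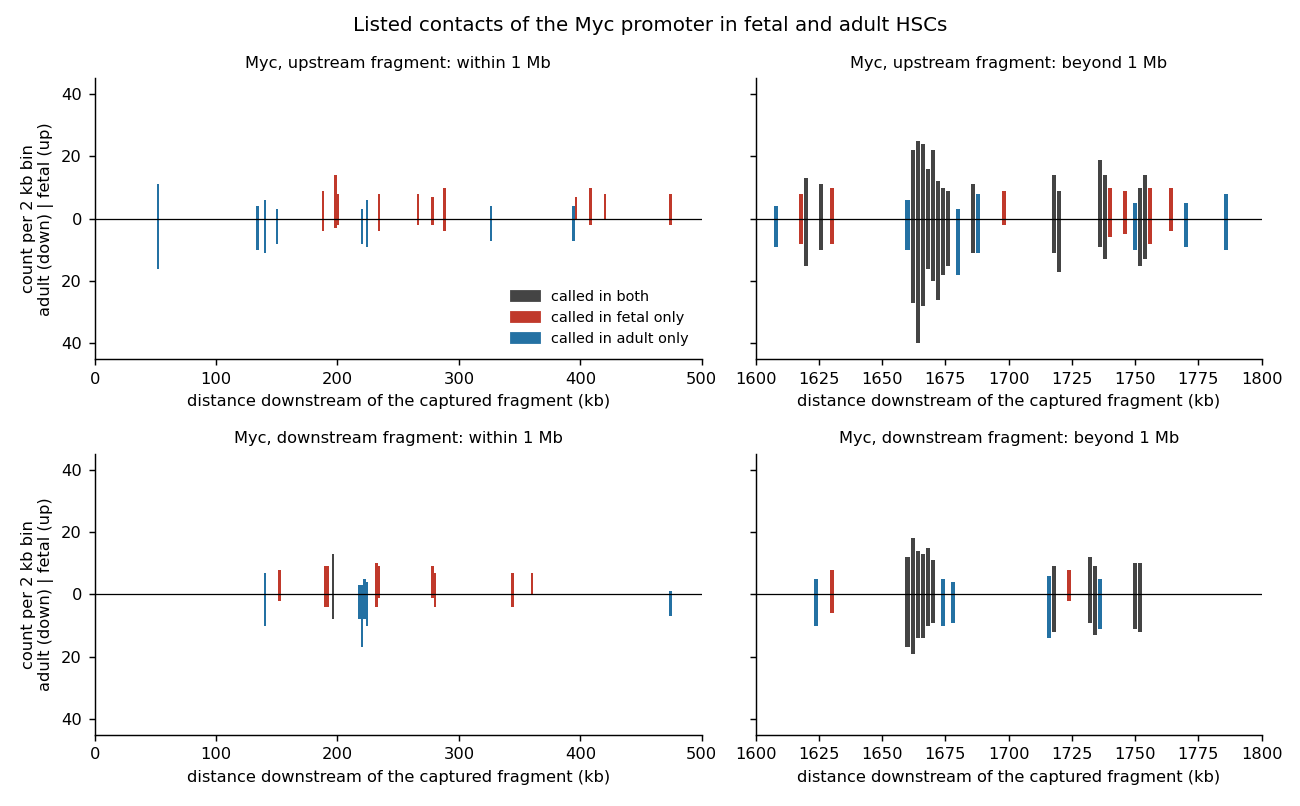
Fetal (up) and adult (down) counts at every listed downstream contact of the upstream (top) and downstream (bottom) Myc fragment, within 1 Mb (left) and beyond it (right), by distance in kb and coloured by the calling population. Far contacts are mostly called in both populations and reach 40 adult counts at 1664 kb, while near contacts are nearly all called in 1 population.

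Near and far contacts differed in how often the populations shared them. In the far group, 17 of 31 contacts of the upstream fragment (54.8%, 36.0 to 72.7) and 11 of 18 of the downstream fragment (61.1%, 35.7 to 82.7) had a call in each population. In the near group, 0 of 19 (0 to 17.6%) and 1 of 16 (6.25%, 0.158 to 30.2) did. Of the 31 far bins of the upstream fragment, 12 lie in a single run of 30 kb. Neighbouring bins are not independent, so these intervals cannot decide whether the groups differ. No share was computed for other first-batch contacts at the distances of the near group. Among the 438 other first-batch contacts beyond 1 Mb, 26.3% were called in both, and their median scores were 2.74 in fetal and 2.15 in adult cells. Far contacts also scored higher, with median fetal scores of 3.54 and 4.37 and adult scores of 5.17 and 3.15 at the upstream and downstream fragment, where near contacts had 2.0 and 2.08 in fetal and 1.56 and 1.62 in adult cells. A call near the lowest score is more easily missed in the other population, and the part of score in this difference was not tested.

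The highest counts stood 1660 to 1666 kb downstream. At the bin 63480001 to 63482001 the upstream fragment had 25 fetal and 40 adult counts, with scores of 18.24 and 34.51, its highest in either population. The downstream fragment had 18 and 19 counts at the same bin, with scores of 10.45 and 9.9, also its highest. The bins on either side, 63478001 to 63480001 and 63482001 to 63484001, had 22 and 24 fetal and 27 and 28 adult counts at the upstream fragment. At the downstream fragment they had 12 and 14 fetal and 17 and 14 adult counts. The unmarked bin 63486001 to 63488001 a little beyond them had 22 fetal and 20 adult counts at the upstream and 15 and 10 at the downstream fragment. The 3 bins at the peak are marked as active enhancers in both populations, and all but the one farthest from Myc also as open chromatin in both. The run of listed bins around them, joined over gaps of up to 5 kb, covered 63476001 to 63506001 at the upstream fragment and 63478001 to 63498001 at the downstream fragment.

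Further listed bins lay between 1716 kb and 1757 kb downstream. The bin 63552001 to 63554001 had 19 fetal and 9 adult counts at the upstream fragment, with scores of 10.38 and 1.49, but 9 and 13 at the downstream fragment, so the fragments leaned in opposite directions. The bin 63536001 to 63538001 had 9 fetal counts at each fragment, and 17 and 12 adult counts. Both are marked as active enhancers and open chromatin in both populations. The farthest fetal call of the upstream fragment lay at 1764 kb and its farthest adult call at 1786 kb, in bins without a mark. Both populations reached 1752 kb at the downstream fragment.

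**Figure D4:**
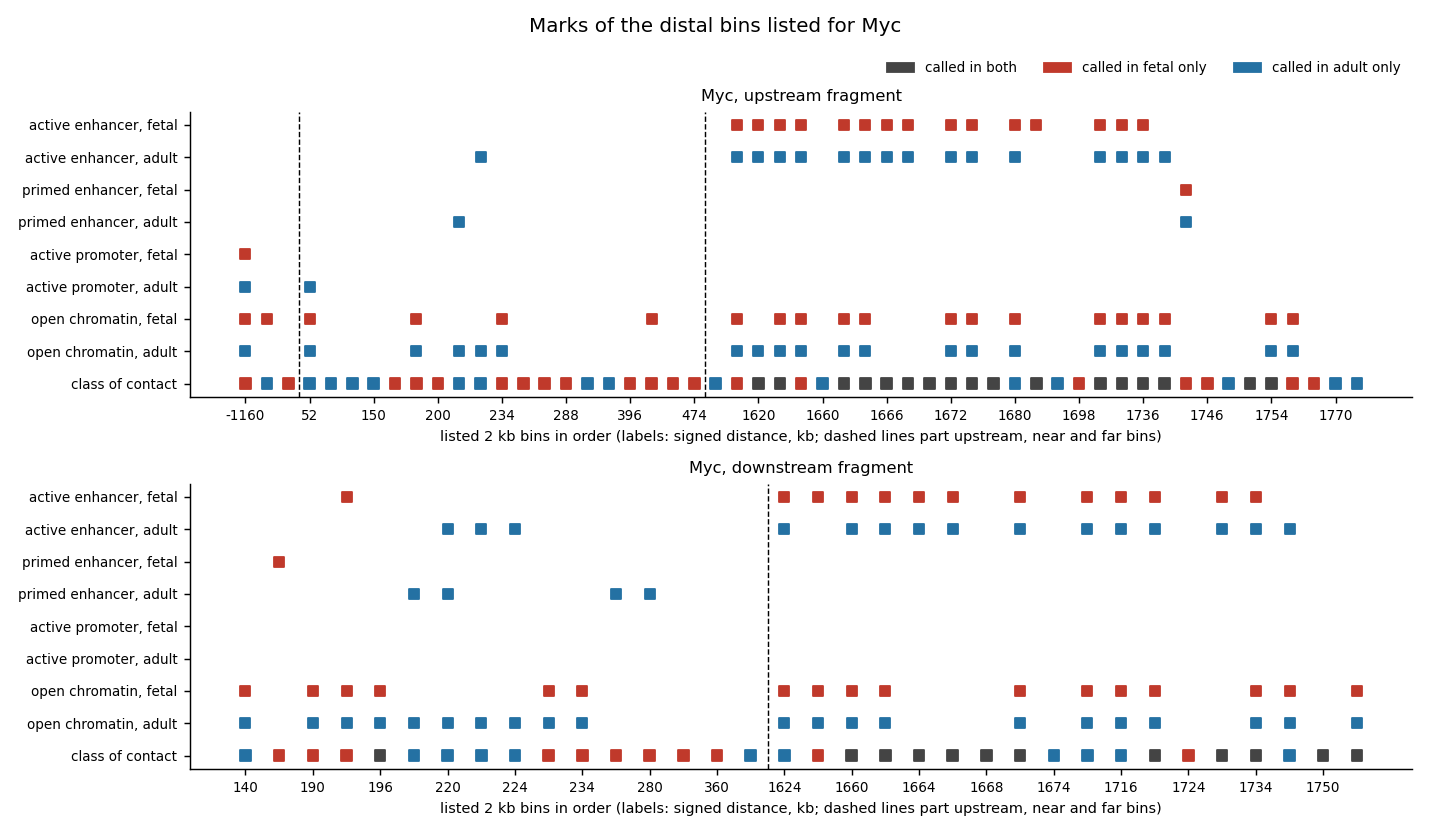
Deposited marks of each distal bin listed for the upstream (top) and downstream (bottom) Myc fragment, in order of signed distance in kb, with fetal marks in red, adult marks in blue and the class of the contact in the lowest row. Active enhancer marks fill much of the far group in both populations, while the near group holds 4 such bins at most per fragment.

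The authors' marks also differed between near and far bins. At the far contacts, active enhancers took 58.3% of the upstream fragment's fetal calls (14 of 24, 36.6 to 77.9) and 54.2% of its adult calls (13 of 24, 32.8 to 74.4). At the downstream fragment they took 9 of 13 (69.2%, 38.6 to 90.9) and 12 of 16 (75.0%, 47.6 to 92.7). In the near group the corresponding numbers were 0 of 11 and 1 of 8, then 1 of 10 and 3 of 7. Among the other first-batch contacts beyond 1 Mb, 13.3% of fetal and 8.05% of adult calls met an active enhancer, both below the far calls of Myc. Open chromatin took 54.2% of the far fetal and 50.0% of the far adult calls of the upstream fragment, and 27.3% and 37.5% of its near ones. At the downstream fragment it took 53.8% and 62.5% of the far and 50.0% and 85.7% of the near calls, so the fragments differed in direction for adult calls. All first-batch calls had 53.0% and 54.6%. No bin of the Myc contacts was marked as a bivalent promoter or poised enhancer in the population that called it. Active promoter marks were seen at 2 bins, one 52.3 kb downstream (adult mark only, 11 fetal and 16 adult counts, called in adult cells only) and one 1160 kb upstream (marked in both, 8 fetal and 3 adult counts, called in fetal cells only).

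Some Myc contacts lay in bins marked as active enhancers in 1 population alone. Bins marked in fetal cells alone held 3.45% of the 87, against 4.24% of all first-batch contacts. Bins marked in adult cells alone held 6.9%, against 3.23%. Of 6 contacts at bins marked as active enhancers in adult cells alone, 5 were called in adult cells only and 1 in both. Of 3 contacts at bins marked in fetal cells alone, 2 were called in fetal cells only and 1 in both. Over all first-batch contacts beyond 20 kb, bins marked in adult cells alone gave 40.7% adult-only and 31.2% fetal-only contacts, and bins marked in fetal cells alone 32.1% and 38.9%. Both fragments listed some of the same bins, so these contacts are not all separate bins, and counts follow the calls through which they were listed.

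Of those 6 adult-marked contacts, 4 belong to a stretch 217 to 225 kb downstream of Myc. The downstream fragment listed 4 adjoining bins there (62036001 to 62044001), all called in adult cells only and all open in adult cells only. Their fetal counts were 3, 3, 5 and 4, and their adult counts 8, 17, 8 and 10. Summed, they held 15 fetal and 43 adult counts, a direction that the listing through adult calls sets. The upstream fragment listed 2 of these bins, again in adult cells only, with 9 fetal and 17 adult counts. The bin at 220.2 kb, with 3 and 17 counts, had the largest adult score of the near group, 7.77. This stretch was picked after its values had been seen.

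Bins on both sides of that stretch were called in fetal cells. At 196.2 and 198.3 kb from the downstream and upstream fragment, the bin 62014001 to 62016001 had 14 fetal and 3 adult counts at the upstream fragment, called in fetal cells only, and 13 and 8 at the downstream fragment, called in both. At 232.2 and 234.3 kb from the downstream and upstream fragment, the bin 62050001 to 62052001 had 8 fetal and 4 adult counts at the upstream and 10 and 4 at the downstream fragment, called in fetal cells only by both. Both bins are open in both populations and carry no enhancer mark. The bin 62010001 to 62012001, listed for the downstream fragment alone, was called in fetal cells only, with 9 fetal and 4 adult counts. It is marked as an active enhancer in fetal cells alone. Beyond 250 kb, a distance chosen after the values had been seen, 11 of the 14 contacts of the near group were called in fetal cells only, where 38.9% of all first-batch contacts were, and the other 3 in adult cells only. The fetal-only ones had 7 to 10 fetal and 0 to 4 adult counts, of which the listing through fetal calls sets the direction. None of these 14 contacts lies in a bin marked as an active enhancer in either population. Of all first-batch contacts, 8.45% lay in bins marked in both, 4.24% in fetal cells alone and 3.23% in adult cells alone. The bins at 278.2 and 280.2 kb from the downstream fragment, called in fetal cells only, are marked as primed enhancers in adult cells.

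Adult counts exceeded fetal counts in the far group. Summed over its bins, the upstream fragment had 360 fetal (324 to 399) and 422 adult counts (383 to 464), a fetal to adult ratio of 0.714 (0.619 to 0.824) after division by 1.19, the ratio of all listed first-batch counts, over 62 kb of listed bins. The downstream fragment had 174 (149 to 202) and 202 (175 to 232), a ratio of 0.721 (0.585 to 0.888), over 36 kb. Scaled by contacts within a chromosome below 1000 counts, whose fetal to adult ratio was 1.09, the ratios became 0.781 (0.677 to 0.901) and 0.788 (0.640 to 0.970), and unscaled 0.853 (0.739 to 0.984) and 0.861 (0.699 to 1.06), so the size depends on the scale. These sums include bins listed through 1 population. Over far contacts called in both, the upstream fragment had 255 fetal and 304 adult counts at 17 contacts, a scaled ratio of 0.702 (0.592 to 0.832) and an unscaled one of 0.839 (0.707 to 0.994). The downstream fragment had 133 and 140 at 11 contacts, with ratios of 0.795 (0.622 to 1.02) and 0.95 (0.744 to 1.21), so its difference was within counting error. All first-batch contacts beyond 20 kb called in both, a set not limited to far contacts, had a scaled ratio of 1.06. No such ratio was computed for the other contacts beyond 1 Mb, so whether they share the adult excess is not known. The restriction to contacts called in both was added after the sums had been seen. Near contacts had 138 fetal and 101 adult counts at the upstream and 111 and 92 at the downstream fragment, and since all but 1 were called in 1 population, these sums follow the numbers of fetal-only and adult-only calls, 11 and 8 at the upstream and 9 and 6 at the downstream fragment.

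**Figure D5:**
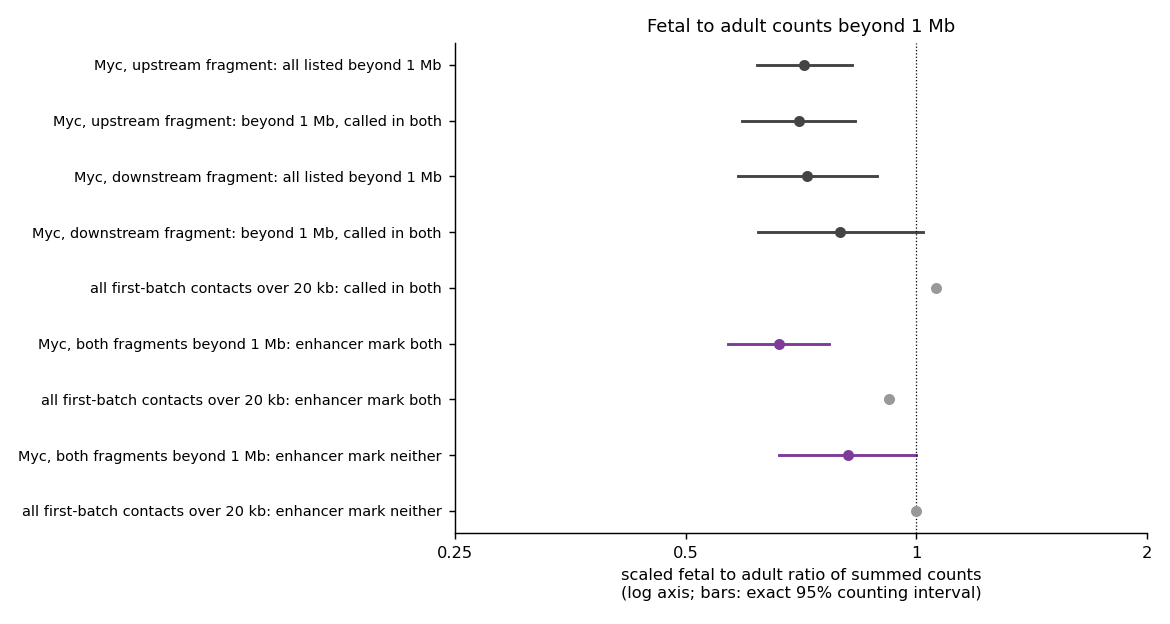
Scaled fetal to adult ratio of summed counts (log axis) with exact 95% counting intervals, for all listed contacts of each Myc fragment beyond 1 Mb, for those called in both populations, and by active enhancer mark, with first-batch contacts over 20 kb in grey. Among contacts called in both, the interval at the upstream fragment (0.592 to 0.832) lies below 1 and that at the downstream fragment (0.622 to 1.02) includes it.

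Far bins marked as active enhancers in both populations had more adult than fetal counts at each fragment. The 25 such contacts had 309 fetal and 391 adult counts, a scaled ratio of 0.662 (0.568 to 0.770) and an unscaled one of 0.790 (0.679 to 0.920), and 19 were called in both populations. At the downstream fragment, 3 of its 11 were called in adult cells only and 0 in fetal cells only, so the listing added to its adult sum. Its unscaled ratio was 0.807 (0.624 to 1.04), within counting error. At the upstream fragment, 1 of 14 was called in adult cells only and 2 in fetal cells only, and the unscaled ratio was 0.781 (0.644 to 0.945). Far bins without the active enhancer mark in either population, 20 contacts, had 187 and 192 counts, a ratio of 0.815 (0.663 to 1.0). The intervals of far bins with that mark in both populations and in neither overlap. Over all first-batch contacts beyond 20 kb, again a set not limited to far contacts, bins so marked in both had a ratio of 0.921. Bins so marked in neither had 1.0. A bin singled out after its values had been seen was 63496001 to 63498001, marked in both, with 3 fetal and 18 adult counts at the upstream fragment and 4 and 9 at the downstream fragment, called in adult cells only by both.

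Single contacts carried little precision. A scaled ratio of at least 2 with at least 10 counts in a population was seen at 5 Myc contacts in the fetal direction and 13 in the adult direction, of 87, where 7.57% and 10.7% of the first-batch contacts beyond 20 kb had it. In the far group of the upstream fragment the adult ones lay at 1672 kb (12 fetal and 26 adult counts), 1674 kb (10 and 18), 1680 kb (3 and 18), 1720 kb (9 and 17) and 1750 kb (5 and 10), and the fetal one at 1764 kb (10 and 4). At the downstream fragment the 4 far ones, at 1624 kb (5 and 10), 1674 kb (5 and 10), 1716 kb (6 and 14) and 1736 kb (5 and 11), were all called in adult cells only. The near ones leaned both ways, with 134.3 kb (4 and 10) and 140.3 kb (6 and 11) towards adult and 288.3 kb (10 and 4) and 408.3 kb (10 and 2) towards fetal cells at the upstream fragment. Those at 1672, 1674 and 1720 kb from the upstream fragment were called in both populations. Every other 2-fold contact of Myc was called only in the population it leaned to, so the listing set its direction. The counting interval of the ratio lay above 1 at 6 and below 1 at 7 Myc contacts, against 3.46% and 8.16% in the batch. Of these, only the contacts at 1664 and 1672 kb from the upstream fragment were called in both populations. No Kit contact reached 10 counts in either population, so the 2-fold rule could not be met there and says nothing about Kit. The interval lay below 1 at 2 of the 6 Kit contacts, both called in adult cells only, so the listing set their direction. Called Myc contacts rested on 7 to 25 fetal and 7 to 40 adult counts, and called Kit contacts on 7 fetal and 5 to 8 adult counts. Most Myc contacts called in 1 population also had counts in the other. Fetal-only contacts had medians of 3.5 and 4 adult counts at the upstream and downstream fragment, and adult-only ones of 4.5 and 5 fetal counts. The adult count was 0 at 2 fetal-only contacts of the upstream and 1 of the downstream fragment. The bin at 1618 kb from the upstream fragment had 8 counts in each population and was called in fetal cells only.

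The pair of Myc fragments gave a check within the same libraries, which is not a replicate. They listed 68 bins in all and 19 in common, 35.8% of the bins of the upstream and 55.9% of those of the downstream fragment, 15 of them in the far and 4 in the near group. Of these 19 bins, 14 had the same class at both fragments (10 called in both populations, 3 in adult cells only, 1 in fetal cells only), 5 were called in both populations at 1 fragment alone, and 0 had opposite classes. The upstream fragment had the higher fetal count at 14 and the higher adult count at 13 of the 19, with sums of 255 against 177 fetal and 302 against 213 adult counts. The log2 ratios of fetal to adult counts at the 19 bins, which share libraries and bins, had a Spearman's rho of 0.27.

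Among first-batch promoters, those most like each entry in calls and expression (Euclidean distance over log2 of calls + 1 and FPKM + 1 in both populations) were Hp1bp3, Tln1 and Msi2_1 for Kit, at distances of 0.60 to 0.74. For the downstream Myc entry they were Cbx1, Kars and Myb, at 0.35 to 0.36, and for the upstream one Rac1, Psmd11 and Brix1, at 0.33 to 0.48. Myb, another regulator of blood progenitors, had 22 fetal and 23 adult calls and 39.0 and 50.3 FPKM.

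The pathways around both genes were compared by calls over both batches, where 49.1% of 3781 entries had more fetal and 40.2% more adult calls, and the median log2 ratio was 0.0. The mark of differential expression is read in the first batch only, where 15.8% of entries carried it and were higher in fetal and 19.7% in adult cells, since all 1829 second-batch entries (100.0%, and so 66.7% over both batches) carry it. Of 29 further genes of KIT signalling, 12 were captured at 19 entries, 7 with more fetal calls, 8 with more adult calls and 4 with equal numbers, and a median log2 ratio of 0.0. The largest adult excess was at Cbl, a ubiquitin ligase that acts on activated KIT (1 fetal and 6 adult calls), Pik3r1, a regulatory subunit of PI3 kinase (1 and 5), and a promoter of the kinase gene Akt1 (0 and 1). The largest fetal excess was at the alternative promoters Akt1_1 (2 and 1) and Akt1_2 (31 and 21), and at Sos1, an activator of RAS (36 and 27). The ligand gene Kitl had 2 calls in each population and 0.0387 fetal and 0.287 adult FPKM. Of the 17 first-batch entries of the KIT signalling list, 3 were marked as differentially expressed. Sh2b3, an adaptor that restrains KIT signalling, was higher in fetal cells at both of its entries (10.2 against 5.50 and 10.5 against 5.48 FPKM), and Stat5a, a transcription factor activated downstream of KIT, was higher in adult cells at its marked entry (15.2 against 25.4 FPKM), while its entry Stat5a_1, with 13.3 and 19.8, was not marked.

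Of 24 further gene names of the MYC network, 6 were captured at 7 entries. More fetal calls were seen at 4 and more adult calls at 3 of them, with a median log2 ratio of 0.06. Fbxw7_2, a promoter of the ubiquitin ligase gene that marks MYC for destruction, had 10 fetal and 4 adult calls, Mga, a MAX partner, 35 and 25, and the related gene Mycn 45 and 39. Ruvbl1 and Ruvbl2, ATPases that act with MYC, had 4 and 9, and 33 and 43, and Skp2 had 4 and 6. Of the 6 first-batch entries, Ruvbl1 (60.6 against 36.7 FPKM) and Skp2 (6.89 against 2.97) were marked as differentially expressed, both higher in fetal cells. Of 15 target genes of MYC, 12 were captured at 14 entries, 10 with more fetal and 2 with more adult calls, at a median of 0.12. The largest fetal excess was at Odc1, the first enzyme of polyamine synthesis (7 fetal and 1 adult calls), Fbl, a nucleolar methyltransferase (6 and 1), and Ldha_1, a promoter of the lactate dehydrogenase gene (23 and 14). More adult calls were listed at Nop56_1, a promoter of a nucleolar protein gene (14 and 23), and at Hspd1_1, of a mitochondrial chaperone gene (16 and 21). Of the 11 first-batch entries, 5 were marked as differentially expressed, 4 of them higher in fetal cells, among them Npm1, a nucleolar protein (307 against 214 FPKM), while Ccnd2, a cyclin, was higher in adult cells (19.7 against 34.7). At so few entries the counts per list are given as a description.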

How the data were processed

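Promoter Capture-C libraries (DpnII) were sequenced with paired ends. The submitters' processing notes name Trim Galore 0.41, Bowtie2 2.2.2 and mm9 without their roles, and the deposited table names the LiMACC caller. Per promoter entry and 2 kb distal bin, the authors deposited a read count N and a score, the −log10 of a p-value (0 where not called), per population and batch, with 0/1 chromatin marks and FPKM per entry. Whether counts were summed or averaged over libraries, and how FPKM was made, is not given in the sources used here. Listed first-batch counts totalled 1312829 fetal and 1098957 adult, and fetal to adult ratios were divided by their ratio, 1.19. Bins not listed have no value here, so sums cover listed bins only.

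Proportions have exact Clopper-Pearson intervals, counts exact Poisson intervals, and ratios exact conditional intervals (Python 3.11.15, scipy 1.17.1, pandas 2.3.3), all 95%. The interval code was tested on simulated data. Log2 ratios add 1 to each side. Named bins are, per entry, the 5 highest scores and the farthest call in each population and all bins past 2-fold with at least 10 counts, and others were chosen after their values were seen. Named genes are the 3 entries nearest in calls and FPKM and, per list, the 3 largest log2 ratios of calls each way; Kitl and genes named for their expression were added after their values were seen. Members and lists were chosen with earlier results of these data known. Other scales, scores, pseudocounts, marks and bin matching were tried.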

Additional observations from a re-analysis of the deposited data

How the results depend on the processing

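Of 130 alternatives to 34 results, 101 stayed within the 95% interval of the value given or equalled it after rounding. Another 29 moved and 0 reversed a called direction. Keeping only contacts over 20 kb could change nothing, since all Kit and Myc contacts lie at least 52.3 kb away, and these alternatives count among the 101. A reversal could be scored only for ratios of calls or counts and median distances whose 95% interval excluded 0. Sign changes inside an interval, as of the Kit median distance below, were therefore not scored. For median distances that interval comes from the order of the calls and spans near and far bins, so large shifts fall inside it. No paired analysis was possible because the table holds no values per library, and leaving out a library was not possible for the same reason.

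Calls at a p-value 10 times smaller took the Kit share of fetal calls also called in adult cells from 50.0% to 0.0%, that of adult calls from 20.0% to 0.0%, upstream adult calls from 20.0% to 0.0%, adult calls in active enhancers from 80.0% to 100.0%, the log2 ratio of Kit calls from -1.0 to 0.0, and the fetal minus adult median distance of Kit from -33.0 to 72.0 kb. At the upstream Myc fragment they took upstream adult calls from 3.03% to 0.0%, adult calls in active enhancers from 42.4% to 61.1%, and the log2 ratio of scaled counts within 1 Mb from 0.19 to 0.74, where the downstream fragment went from 0.01 to -0.38. Matching calls within 20 kb raised the share of fetal calls also called in adult cells to 100.0% at Kit, 82.6% at the downstream and 75.7% at the upstream Myc fragment, and of adult calls to 95.7% and 78.8% at the Myc fragments. Merging bins moved the difference of median distances from -4.0 to -1134.0 kb at the upstream and from -6.0 to -1264.0 kb at the downstream Myc fragment. Active promoter or primed enhancer marks in place of active enhancers gave 0.0% of fetal and adult Kit calls, 0.0% or 4.35% of fetal and 0.0% or 8.7% of adult calls at the downstream Myc fragment, and 2.7% and 3.03% at the upstream one. Without scaling, log2 ratios of counts moved from -0.3 to -0.04 and from -0.32 to -0.06 at the downstream and upstream Myc fragment, and beyond 1 Mb from -0.49 to -0.23 at the upstream one. A pseudocount of 0.1 changed the Kit log2 ratio of FPKM from -0.61 to -0.62. Counts of at most 40 per bin and the lack of replicates limit every difference given.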
